A study of Mus musculus with 24 samples.

Results

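The genes described here encode the proteins of the cytosolic ribosome in mouse. They are the 37 genes whose single annotated symbol on the array has the form of a large-subunit (Rpl) or small-subunit (Rps) protein name, among 30142 genes with a single symbol. The rule reads symbols and no measured value, though it was set with earlier results of these data known. Which feature stands for a gene was decided by signal, as the brightest within a tissue. Of the 37, 22 have large-subunit and 15 small-subunit names, and 5 are copies of another ribosomal protein gene (Rpl3l, Rpl10l, Rpl32l, Rpl39l and Rps27l). The symbol Rpl6l was left out as a pseudogene, and 38 further ribosomal protein names occur only on features that carry several symbols. Rpl3, Rpl5, Rpl10, Rpl13a, Rplp1, Rplp2, Rps6, Rps27 and Rps27a are among the genes not used here.

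The ribosome is built from a large and a small subunit, each a folded ribosomal RNA with a set of mostly small, basic proteins. Their mRNAs are among the most abundant of a cell and typically begin with a run of pyrimidines, the 5′ terminal oligopyrimidine tract, through which the mTORC1 pathway, LARP1 and the 4E-BPs adjust how strongly they are translated. Most subunit proteins are needed by every cell, while a few copies stand in for the usual protein in particular tissues: Rpl3l in striated muscle, Rpl10l and Rpl39l in the testis. The family also leaves many processed pseudogenes in the genome, whose sequence can be nearly that of the parent mRNA.

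Total RNA of the ventromedial hypothalamus (VMH), a nucleus that regulates energy balance, and of brown adipose tissue (BAT), the heat-producing fat, was hybridised to 24 Affymetrix arrays. Mice were controls or carried the genotype labelled Gfap-Bmal1 cKO, a conditional knockout of Bmal1, a core clock gene, driven through Gfap, and each genotype was kept for 16 weeks on 1 of 2 diets, standard (SD) or high fat (HFD). Each of the 8 groups comprised 3 arrays, and the question was the part that the astrocyte clock has in energy expenditure. Strain, sex, age, the deleted part of the gene and the use of separate animals within a group are not stated in the labels. The p-values therefore rest on the variation among these arrays alone, and part of it may be technical. Gfap marks astrocytes, which are 1 of several cell types in dissected VMH, and the VMH arrays carried neuronal and astrocyte markers while the BAT arrays carried markers of brown adipocytes. In bulk RNA, fewer cells of a type and less RNA per cell cannot be told apart.

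Members with a known sequence around their start were first described by that sequence, because 2 of the motifs bear on the design: the E-box CACGTG is the site that BMAL1 with CLOCK binds, and the pyrimidine tract is the shared feature of this gene family. RefSeq promoter windows of GRCm38.p6, running from 250 bases before to 50 bases after each annotated start, were found for 32 of the 37 members and for 27025 genes in all. An uninterrupted run of at least 8 pyrimidines on the sense strand, lying within 40 bases either side of a start, was present in 25 of the 32 members (78.1%) and in 32.6% of all genes. On the other strand such a run was present in 7 members (21.9%) and in 35.5% of all genes. The motif CCGGAAG, read on both strands and of the kind bound by ETS factors, was present in 15 members (46.9%) and in 9.93% of all genes. The E-box CACGTG, the same on both strands, was present in 2 members (6.25%), Rpl19 and Rps19, and in 8.09% of all genes. These are matches of letters, not measured binding sites.

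The pyrimidine tract is shown in capitals for 5 members, each read 5′ to 3′ on the strand of the gene. They show that the tract differs in length and letters between members. Only runs within 15 bases either side of the start could be shown, so their nearness to the start is the rule of choice. Rpl7a lies on the plus strand at chr2:26910792-26910821, Rpl35 on the minus strand at chr2:39005117-39005146, Rpl38 on the plus strand at chr11:114668565-114668594, Rps18 on the minus strand at chr17:33955651-33955680 and Rps10 on the minus strand at chr17:27635230-27635259.
Rpl7a: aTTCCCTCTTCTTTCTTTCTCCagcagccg
Rpl35: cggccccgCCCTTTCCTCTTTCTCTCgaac
Rpl38: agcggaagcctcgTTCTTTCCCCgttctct
Rps18: tacgtcacttccgCTCTCTCTTCCacagga
Rps10: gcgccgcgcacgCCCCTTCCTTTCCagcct

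The E-box is shown in capitals for the pair of members that hold one, and the ETS-type motif for 3 members described further below. The Rpl19 stretch is at chr11:98026679-98026708 on the plus strand and the Rps19 stretch at chr7:24884781-24884810 on the plus strand. The stretch of Rpl38 is at chr11:114668548-114668577 on the plus strand, that of Rpl41 at chr10:128549207-128549236 on the minus strand and that of Rps7 at chr12:28635950-28635979 on the minus strand, where the motif reads on the opposite strand.
Rpl19: tacccagaggacCACGTGaccaaacgccct
Rps19: tggagccgcggcCACGTGcgagcggcaggc
Rpl38: ggggttaaccgtCCGGAAGcggaagcctcg
Rpl41: ctagtaaggcagCCGGAAGtcgctgtctcg
Rps7: ttttcagaagagCTTCCGGtttccacccac

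Some members were measured with less certainty than others. The chromosome in a feature's identifier was that of its gene for 99.7% of the single-symbol features compared, but the brightest feature of 6 members, Rpl7a, Rpl12, Rpl27, Rpl31, Rpl35 and Rpl41, carried another chromosome. For Rpl41 the brightest feature names chromosome 14 while the gene lies on chromosome 10. Its mean log2 signal in VMH was 15.07, against 8.15 for the feature on chromosome 10. In BAT the means of the same features were 15.66 and 6.78. Which transcript such a feature reads was not tested. Replacing these features by those on the gene's own chromosome, where one exists, was added as an alternative after the data had been seen, and it moved the members' median difference in VMH on HFD from 0.126 to 0.131. The same swap moved that of HFD minus SD in VMH controls from 0.0128 to 0.00106, that between genotypes in BAT on HFD from 0.0153 to 0.0101 and that averaged over diets in BAT from 0.0622 to 0.0492. Every member should be read as possibly sharing signal with pseudogenes.

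**Figure D1:**
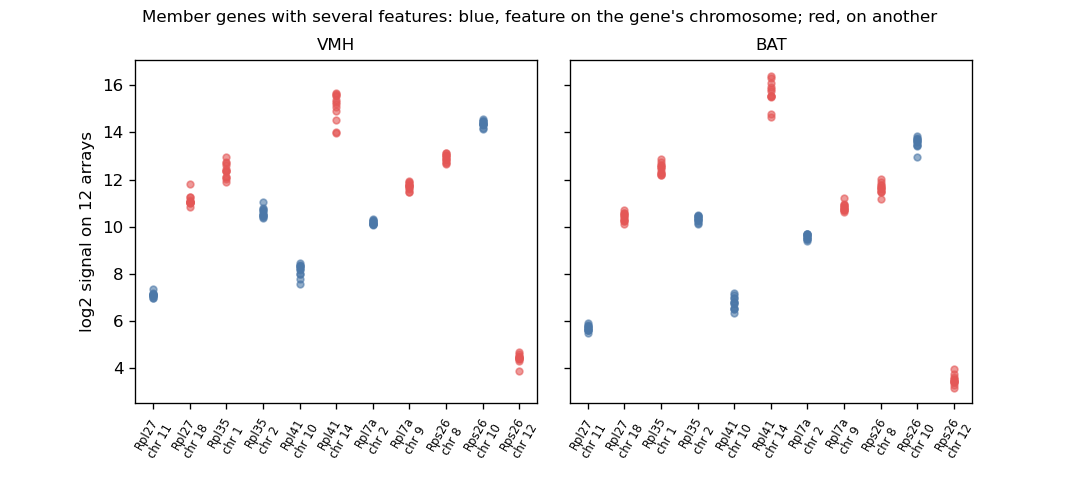
Log2 signal on each of the 12 VMH and 12 BAT arrays for members measured by several features, with points in blue for the feature on the gene's own chromosome and in red for a feature on another. For Rpl27, Rpl35, Rpl41 and Rpl7a the red feature is the brighter, and for Rps26 the blue.

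The VMH arrays had medians from 5.482 to 5.572 and correlated pairwise at 0.994 to 0.997. The BAT arrays had medians from 4.069 to 4.157 and pairwise correlations of 0.935 to 0.996. The targeted gene Bmal1 (Arntl) was not lower under the cKO label in the bulk tissue, and its mean was higher on both diets in both tissues. Its VMH signal on SD was 8.62 ± 0.16 for controls and 9.17 ± 0.21 for the cKO label (standard deviation, n = 3). All cKO arrays lay above all controls there. On HFD these means were 8.95 ± 0.23 and 9.19 ± 0.30 (standard deviation, n = 3), and the groups overlapped. In BAT they were 6.0 ± 0.3 and 6.4 ± 0.75 on SD and 6.46 ± 0.2 and 6.8 ± 0.3 on HFD, with overlap on both diets. Where the feature lies relative to the deletion is not given, so genotypes are named by label, as cKO arrays. Several arrays stood apart in their cell type markers. In BAT the mean of 20 skeletal muscle markers ran from 5.86 to 17.38 on SD and from 5.90 to 12.92 on HFD, against 4.90 to 5.05 in VMH. In VMH the mean of 11 choroid plexus and pituitary markers was 8.44 on HFD cKO array 2 and at most 5.89 on the other arrays.

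Most ribosomal protein genes varied little between arrays. In VMH the standard deviation within groups had a median of 0.129 over the 37 members, the same as over all genes, and 34 members stayed within a range of 1 on the log2 scale over the 12 arrays. Rps18, a small-subunit protein of the head domain, was the steadiest at 0.0572. Rpl41, the smallest protein of the ribosome, had the widest spread at 0.628, followed by Rpl31 at 0.309 and Rpl38 at 0.298. In BAT the median was 0.199 over the members and 0.172 over all genes, and 31 members stayed within 1. Rpl22 was the steadiest there at 0.0763, and the muscle copy Rpl3l had the widest spread at 1.72, followed by Rpl41 at 0.502 and Rpl32l at 0.406.

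Signals of different features do not compare transcript levels, so the order of the members is only that of their features. In VMH the brightest features were those of Rpl4 (16.62 to 16.99), Rpl41 (13.99 to 15.68), Rpl12 (14.69 to 15.30) and Rps26 (14.14 to 14.56). The dimmest were Rpl3l (3.92 to 4.22), Rpl39l (4.29 to 4.53), Rpl10l (4.52 to 5.25) and Rps14 (6.41 to 6.78). The first 3 of these are the copies named for muscle or testis, and they are also the 3 members below the median signal of the VMH table. In BAT, Rpl4 (15.98 to 16.88), Rpl41 (14.64 to 16.39), Rpl12 (13.39 to 14.22) and Rps26 (12.97 to 13.84) were again brightest, and Rpl10l (4.07 to 4.53), Rpl39l (4.50 to 5.23), Rps14 (4.96 to 5.38) and Rps28 (4.95 to 5.41) were dimmest. None of the members came near the upper limit of the deposited signals.

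On SD, no ribosomal protein gene passed the test between genotypes in VMH. Differences were small and mostly positive: 28 of the 37 members lay above 0, with a median of 0.0528, where 52% of all genes lay above 0 with a median of 0.00528. By subunit, 15 of 22 large-subunit and 13 of 15 small-subunit names were positive. In limma, which fitted the group means of all 30142 genes and adjusted p-values by Benjamini-Hochberg, 0 members passed an adjusted p of 0.05 and 0.119% of all genes did. At an unadjusted p under 0.05 there were 2 members, against 5.61% of all genes. The count above 0 rested in part on single arrays. On cKO array 2, 36 of the 37 members lay above their own mean over the 12 arrays: without it 18 were positive and the median was -0.0044. On control array 1, 8 members lay above their mean: without it 21 were positive and the median was 0.00817.

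Rpl10a, a protein of the large subunit's L1 stalk, had the smallest p in that comparison. Its log2 signals were 8.30, 8.30 and 8.45 in controls and 8.58, 8.62 and 8.49 in cKO arrays. All cKO arrays were above all controls, and the difference was 0.21 ± 0.07 (SE) with a limma adjusted p of 0.763. Rpl10l, the testis copy of Rpl10, read 4.96, 5.05 and 5.25 in controls and 4.89, 4.52 and 4.80 in cKO arrays. Here all cKO arrays were below all controls, by a log2 difference of -0.35 ± 0.13, at a limma adjusted p of 0.821. Without overlap between the groups, 3 members were higher (Rpl6, Rpl10a and Rps24) and 3 lower (Rpl3l, Rpl10l and Rpl39l), where 5.36% of all genes were higher and 3.45% lower in this way. The 3 lower ones are also the members whose signal lay below the median of the VMH table.

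On HFD the differences between genotypes in VMH were again small, and nearly all had the same sign. Of the 37 members 34 lay above 0, with a median of 0.126 on the log2 scale, where 59.4% of all genes lay above 0 with a median of 0.0261. All 15 small-subunit names and 19 of the 22 large-subunit names were positive. The exceptions were Rpl31 (-0.12), the testis copy Rpl39l (-0.08) and Rpl35 (-0.00267), of which the feature on the gene's own chromosome gave 0.199. Limma called 0 members after adjustment and 0.116% of all genes, and 6 members had an unadjusted p under 0.05, against 7.98% of all genes. In 10 members all cKO arrays lay above all controls and in 0 below, where 10.7% and 5.51% of all genes did. Leaving out any single array kept 29 to 35 members above 0 and the median between 0.0909 and 0.142, with the lowest of both without control array 2. Without cKO array 2, the array with the high pituitary and choroid plexus markers, 31 were positive with a median of 0.0917.

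Markers of the other cell types in the dissected tissue also differed between these groups. On HFD 10 of 13 oligodendrocyte markers, genes of myelin and of the cells that make it, were lower in cKO arrays (median difference -0.373), and their mean log2 signal was 8.94 to 9.12 in cKO arrays against 9.27 to 9.51 in controls, with no overlap. On SD 12 of the 13 were lower (median -0.625), with means of 8.68 to 9.64 in cKO arrays and 9.07 to 10.44 in controls. The mean of 12 general neuron markers on HFD was 13.06 to 13.11 in cKO arrays and 12.86 to 12.96 in controls, and 10 of them were positive with a median of 0.0681. Of these only Stmn2, a tubulin-binding protein of neurons, passed limma's threshold, at 0.89 ± 0.08 (SE) and an adjusted p of 0.000872. Of 12 astrocyte markers 9 were positive on HFD with a median of 0.0422, and none of them or of the oligodendrocyte markers passed limma's threshold on either diet. On HFD 5 astrocyte markers and 1 oligodendrocyte marker had an unadjusted p under 0.05, against 7.98% of all genes. On SD 5 and 4 did, against 5.61% of all genes. The part of these shifts in the members' differences was not tested.

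Rps28, a small protein of the small subunit, showed the smallest p of the HFD comparison. Its signals were 6.59, 6.53 and 6.62 in controls and 6.71, 7.03 and 6.69 in cKO arrays. The groups did not overlap, and cKO array 2 stood above the other cKO arrays. The difference was 0.23 ± 0.09 (SE), with a limma adjusted p of 0.53.

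Rplp0, the base of the stalk that recruits elongation factors to the large subunit, read 10.04, 9.78 and 10.09 in controls and 10.10, 10.41 and 10.17 in cKO arrays. All cKO arrays were higher, the nearest values being 0.01 apart as rounded, and the limma adjusted p was 0.581 for a difference of 0.26. Rps27l, a copy of Rps27 that p53 induces, read 7.23, 7.08 and 7.40 in controls and 7.62, 7.40 and 7.41 in cKO arrays. Its cKO arrays were also the higher, with the nearest values equal as rounded, by 0.24 on average, with a limma adjusted p of 0.576.

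Rpl12, which lies at the foot of the stalk, read 14.96, 14.87 and 14.89 in controls and 15.08, 15.23 and 15.16 in cKO arrays. The groups did not overlap, and the difference was 0.25 with a limma adjusted p of 0.587, from a feature that carries another chromosome than the gene. Rpl32l had a difference of 0.42 (adjusted p 0.603) and Rpl19, one of the members with an E-box, of 0.45 (adjusted p 0.615). The Rpl19 groups overlapped, with 10.11, 10.71 and 10.44 in controls and 10.96, 10.63 and 11.03 in cKO arrays. Rps19, the other member with an E-box and the gene most often mutated in Diamond-Blackfan anaemia, differed by 0.05 on HFD and by 0.00217 on SD.

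Averaged over the diets, 32 members were positive, 17 of the large and 15 of the small subunit, with a median of 0.0917 against 0.0151 over all genes, of which 57.5% were positive. Rpl10a again had the smallest p, at a difference of 0.18 ± 0.05 (SE) and a limma adjusted p of 0.275. It was followed by Rpl12 (0.24, adjusted p 0.411), Rps24 (0.15, adjusted p 0.528), Rps28 (0.16, adjusted p 0.531) and Rplp0 (0.19, adjusted p 0.546). No member passed in limma, where 0.299% of all genes did, and 7 had an unadjusted p under 0.05, against 8.12% of all genes. The confidence interval (95%) of the averaged difference reached from 0.08 to 0.28 for Rpl10a and from -0.15 to 1.21 for Rpl41. That wide interval is of the chromosome 14 feature, and on the chromosome 10 feature of Rpl41 it reached from -0.0238 to 0.542. Under quantile normalization, which centres the genotype effect over all genes near 0, 27 members were positive with a median of 0.0599, and the values were 22 and 0.0236 on SD and 32 and 0.0883 on HFD. The interaction of genotype and diet had a median of 0.0524 over the members and 0.0209 over all genes, with 0 members past the limma threshold, as for all genes (0%), and 1 at an unadjusted p under 0.05 (4.78% of all genes). That member was Rpl10l, whose signal lay below the median of the VMH table, at 0.54 ± 0.18 and an adjusted p of 0.978.

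**Figure D2:**
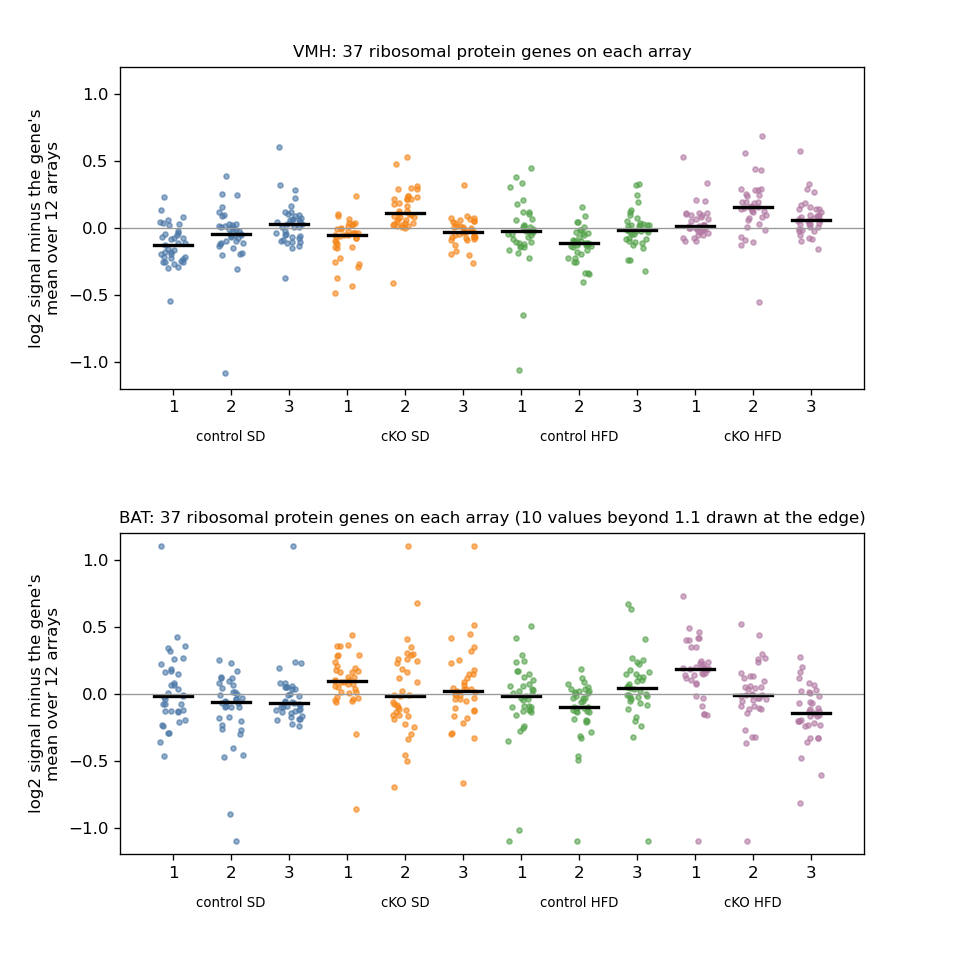
Each point is 1 of the 37 members on 1 array, as its log2 signal minus its own mean over the 12 arrays of the tissue, with the median as a bar. In VMH the bars of the cKO arrays on HFD lie above 0 (0.01 to 0.16) and those of the HFD controls below (-0.12 to -0.01), while on SD cKO array 2 (0.11) stands apart from the other cKO arrays. In BAT the cKO arrays on HFD lie between -0.14 and 0.19.

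Members also tended to lie on the same side of their means on a given array. In VMH, control array 2 on HFD had 5 of the 37 members above their own mean and control array 1 on SD had 8, while cKO array 2 on SD had 36 and cKO array 2 on HFD had 31. Over all genes the share above the mean stayed between 42.8% and 54.8% on the 12 VMH arrays. Within the cKO SD group the counts were 9, 36 and 14, against 15, 5 and 17 in HFD controls and 23, 31 and 28 in HFD cKO arrays. The part of cell composition or RNA quality in these shifts was not tested.

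The VMH ribosomal protein genes showed no called change with diet. HFD minus SD in controls was positive for 19 of the 37 members, with a median of 0.0128 against -0.0162 over all genes, of which 44.5% were positive. In cKO arrays 30 were positive with a median of 0.0613, against 0.0047 over all genes and 51.7% of them positive. Both rested on the scaling and on single arrays: under quantile normalization 14 members were positive in controls with a median of -0.0313, and 21 in cKO arrays with a median of 0.00934. Leaving out single arrays gave 13 to 25 positive and medians from -0.0409 (without SD control array 1) to 0.0478 (without HFD control array 2) in controls. In cKO arrays it gave 24 to 34 positive and medians from 0.0192 (without SD cKO array 1) to 0.107 (without SD cKO array 2). Limma called 0 members in either genotype, as it did 0% of all genes in controls and 0.00332% in cKO arrays. At an unadjusted p under 0.05 there were 1 and 2 members, against 7.15% and 7.06% of all genes. All HFD arrays lay above all SD arrays for 2 members in controls and 3 in cKO arrays (5.58% and 8.16% of all genes), and below for 0 in both (6.21% and 5.96%). These comparisons share arrays with those between genotypes. Neuron markers differed between the diets too. The mean of 8 VMH neuron markers in controls was 10.85 to 10.99 on SD and 11.18 to 11.42 on HFD. In cKO arrays it was 10.9 to 11.08 and 11.2 to 11.53, and neither pair of groups overlapped. In cKO arrays all 8 were positive, 0 past limma's threshold and 5 at an unadjusted p under 0.05. The part of this in the members' differences was not tested.

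Rpl35, beside the exit of the protein tunnel, had the smallest p in controls. It read 12.12, 12.35 and 12.02 on SD and 12.73, 12.36 and 12.71 on HFD, a difference of 0.43 ± 0.19 (SE) at a limma adjusted p of 0.697. The HFD arrays were all higher, the middle one by 0.01 as rounded over the highest SD array. These values are of a feature that carries chromosome 1, while the gene lies on chromosome 2. The feature on chromosome 2 read 10.52, 10.38 and 10.49 on SD and 10.66, 10.42 and 10.71 on HFD, where the groups overlapped and the difference was 0.136 with a limma adjusted p of 0.85. In cKO arrays Rps28 had the smallest p, with 6.53, 6.62 and 6.51 on SD against 6.71, 7.03 and 6.69 on HFD. The difference was 0.26 ± 0.09, with an adjusted p of 0.576, and the groups did not overlap.

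In BAT no ribosomal protein gene passed the test between genotypes. On SD 29 of the 37 members were positive, with a median of 0.0784 where the median of all genes was -0.0147 and 45.3% of them were positive. On HFD 22 were positive with a median of 0.0153, against 0.0102 and 52.8% over all genes. Limma called 0 members and 0% of all genes on both diets. At an unadjusted p under 0.05 there were 3 members on SD and 1 on HFD, against 3.89% and 7.24% of all genes. On SD, leaving out cKO array 1 gave 23 positive with a median of 0.038, and leaving out cKO array 3 gave 28 with a median of 0.137. The median was 0.0521 without SD control array 2. Without cKO array 1 the HFD count was 14 and the median -0.037. On SD 3 members were higher and 0 lower without overlap (3.34% and 4.56% of all genes), and on HFD 0 were higher and 0 lower (7.67% and 8.55%). The genotype groups also differed in muscle markers: all 20 were positive on both diets, with medians of 3.07 on SD and 2.31 on HFD. On either diet 0 of them had an unadjusted p under 0.05. Apart from the covariate fit given below, the part of this in the members' differences was not tested.

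Rps15, a small-subunit protein near the decoding site, had the smallest p on SD. Controls read 7.69, 7.53 and 7.58 and cKO arrays 8.06, 8.01 and 8.05. The groups did not overlap and the cKO arrays lay within 0.05 of each other, with a difference of 0.44 ± 0.13 (SE) and a limma adjusted p of 0.998. On HFD the same gene read 7.76, 7.67 and 7.50 in controls and 7.84, 7.38 and 7.37 in cKO arrays, and the groups overlapped. The interaction, positive for 13 of the 37 members and for 53.5% of all genes, was -0.56 ± 0.18 for Rps15 with a limma adjusted p of 1, where 0% of all genes passed and 2 members (Rps15 and Rpsa) against 4.19% of all genes had an unadjusted p under 0.05.

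Rps7 had a higher mean in cKO arrays on both diets. It read 13.06, 12.65 and 12.84 in SD controls, 13.12, 13.20 and 13.33 in SD cKO arrays, 12.66, 12.42 and 12.80 in HFD controls and 13.26, 12.90 and 12.71 in HFD cKO arrays. The groups were apart on SD and overlapped on HFD. Averaged over diets the difference was 0.35 ± 0.11 (SE), the smallest p among the members, with a limma adjusted p of 0.637. The X-linked Rps4x differed by 0.25 in the same average, at an adjusted p of 0.649. In that average 30 members were positive, the median was 0.0622 against -0.00181 over all genes, 49.2% of all genes were positive, 0 members and 0% of all genes were called, and 2 members against 7.4% of all genes had an unadjusted p under 0.05.

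Diet in BAT left most of these genes near 0. HFD minus SD was positive for 20 members in controls (median 0.015) and for 18 in cKO arrays (median -0.0118), where all genes had medians of 0.0111 and 0.0387 and 52.9% and 59.9% of them were positive. Without overlap, 3 members were higher and 0 lower on HFD in controls (10.5% and 8.62% of all genes), and 2 were higher and 3 lower in cKO arrays (13.6% and 9.27% of all genes). Limma called 0 members in both genotypes, against 0.441% of all genes in controls and 0% in cKO arrays. At an unadjusted p under 0.05 there were 3 and 4 members, against 16.3% and 16.6% of all genes. With array weights, which give noisier arrays less influence, 4 members passed in each genotype, and so did 4670 genes upward and 3470 downward in controls and 2018 and 1749 in cKO arrays.

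Rpl11, which with Rpl5 binds MDM2 when ribosome assembly is disturbed, had the smallest p in controls. It read 5.89, 6.25 and 6.06 on SD and 6.42, 6.30 and 6.41 on HFD, all HFD arrays being the higher, with a difference of 0.31 ± 0.11 (SE) and a limma adjusted p of 0.225. In cKO arrays the smallest p was that of Rps15, whose SD and HFD values are given above, at -0.51 ± 0.13 and an adjusted p of 0.141. Rpl37a, a zinc-binding protein of the large subunit, read 8.39, 9.12 and 8.95 on SD and 8.29, 8.12 and 8.31 on HFD in cKO arrays. All HFD arrays were lower, by a log2 difference of -0.58 ± 0.17, at an adjusted p of 0.172. Without SD cKO array 1, the one nearest to the HFD values, the difference was -0.80 and its limma adjusted p 0.0258, in a fit where 797 of 30142 genes passed.

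**Figure D3:**
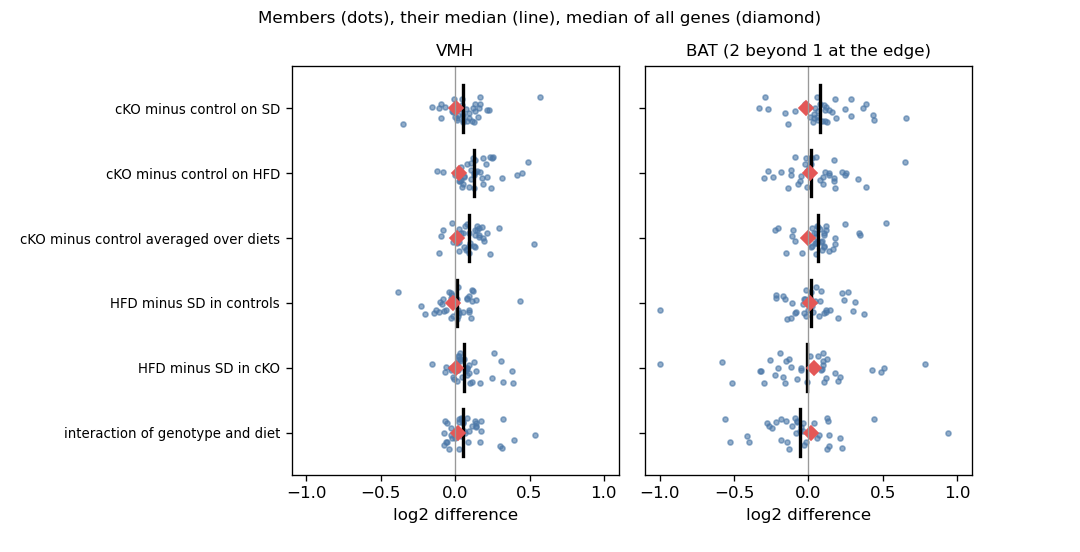
Log2 difference of each of the 37 members (dots) in the 6 comparisons of each tissue, with their median as a line and the median of all 30142 genes as a diamond. The members' median lies farthest right of the diamond in VMH on HFD (0.126 against 0.0261), and the pair of dots at the left edge of the BAT panel is Rpl3l, at -3.19 and -3.46.

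Rpl3l, the copy of Rpl3 that replaces it in heart and skeletal muscle, had the widest spread of the members in BAT and not in VMH. On SD it read 10.09, 4.29 and 8.60 in controls and 6.69, 9.83 and 8.43 in cKO arrays. On HFD it read 4.42, 4.38 and 4.61 in controls and 4.51, 4.55 and 5.51 in cKO arrays. Thus 5 of the 6 SD arrays lay above all HFD arrays, and SD control array 2 lay below all of them. HFD minus SD was -3.19 ± 1.28 (SE) in controls and -3.46 ± 1.28 in cKO arrays, with limma adjusted p of 0.262 and 0.231. Without SD control array 2 the difference in controls was -4.88 at a limma adjusted p of 0.0191, in a fit where 1986 of 30142 genes passed. In VMH the gene stayed between 3.92 and 4.22 on all arrays.

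The skeletal muscle markers moved with Rpl3l. Their mean was 17.38, 5.86 and 16.40 in SD controls and 14.66, 17.24 and 16.55 in SD cKO arrays. On HFD it was 7.06, 5.90 and 9.64 in controls and 5.90, 10.45 and 12.92 in cKO arrays. All 20 markers were lower on HFD in both genotypes, with medians of -6.00 and -6.83, and the SD array lowest for Rpl3l was also the lowest for these markers. With the mean of these markers as a covariate the Rpl3l difference was -0.99 ± 0.80 in controls and -0.98 ± 0.83 in cKO arrays, with limma adjusted p of 0.79 and 0.829. Except for SD control array 2, every SD array lay above every HFD array in these markers, so this fit cannot tell diet from muscle content. The brown adipocyte markers were at 8.78 on SD control array 1, where Rpl3l was highest, and between 10.63 and 13.72 on the others. Eef1a2, the elongation factor form of muscle and neurons, differed by -4.52 ± 1.83 between the diets in controls at an adjusted p of 0.265. With the muscle covariate, the genotype difference on SD was 0.48 ± 0.13 for Rps15 and 0.34 ± 0.17 for Rps7, and the members' median was 0.0752. In that comparison 0 members passed limma's threshold.

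**Figure D4:**
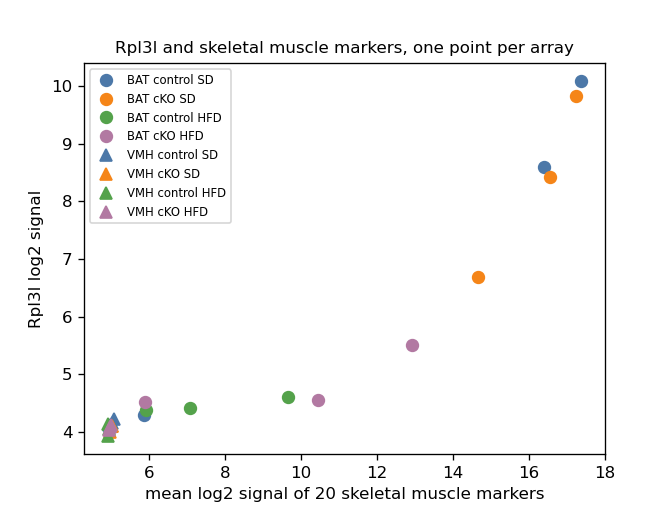
Log2 signal of Rpl3l against the mean log2 signal of 20 skeletal muscle markers, 1 point per array, with BAT as circles and VMH as triangles and groups by colour. The 5 BAT arrays with Rpl3l above 6 are the 5 whose markers lie above 14, all on SD, and the VMH triangles sit together between 3.92 and 4.22.

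The testis copies and the p53-induced copy also had values of their own. Rpl39l in BAT read 4.84, 5.04 and 5.19 in SD controls and 4.66, 4.50 and 4.91 in SD cKO arrays, then 4.72, 5.08 and 5.23 in HFD controls and 5.19, 5.01 and 5.16 in HFD cKO arrays. Its HFD cKO arrays were all above its SD cKO arrays, by 0.43 at a limma adjusted p of 0.218. Its usual form Rpl39 differed by 0.07 in the same comparison. Rpl10l stayed between 4.07 and 4.53 in BAT, near the median signal of that table. Rps27l in BAT ran from 7.73 to 9.09, with HFD minus SD at 0.38 in controls and 0.51 in cKO arrays (adjusted p 0.537 and 0.37).

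Rpl41 had the widest spread of the members in VMH, and on several arrays its values ran opposite to those of Rpl38. In VMH, Rpl41 read 14.89, 13.99 and 15.68 in SD controls, 15.31, 15.55 and 15.39 in SD cKO arrays, 14.01, 15.08 and 15.21 in HFD controls and 15.60, 14.52 and 15.65 in HFD cKO arrays. Rpl38, known for its part in the translation of Hox mRNAs, read 9.50, 10.18 and 9.80, then 9.54, 9.87 and 9.60, then 10.17, 9.54 and 9.55, then 9.69, 10.23 and 9.83 in the same order. The 3 arrays with the lowest Rpl41, SD control 2, HFD control 1 and HFD cKO 2, are the 3 with the highest Rpl38, and also those with the highest Rpl4 and Rpl11. These arrays were noticed from their values. Of all genes, 1.08% had their 3 highest values and 0.79% their 3 lowest on the same arrays. The Rpl41 feature on the gene's own chromosome was lowest on the same 3 VMH arrays, at 7.79, 7.58 and 8.0.

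In BAT, Rpl41 was lowest on HFD control array 1 (14.64) and SD cKO array 1 (14.80), and Rpl38 was highest there (8.41 and 8.23), as were 1.26% of all genes. The chromosome 10 feature of Rpl41 read 6.53 and 6.51 on these arrays, but 6.35 on SD cKO array 2. In VMH the 3 arrays belong to 3 groups, and neither gene passed a VMH comparison. The genotype difference of Rpl41 averaged over diets in VMH was 0.53 on the chromosome 14 feature, with a limma adjusted p of 0.701, and 0.259 on the chromosome 10 feature, with an adjusted p of 0.64. That of Rpl38 was 0.00437.

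**Figure D5:**
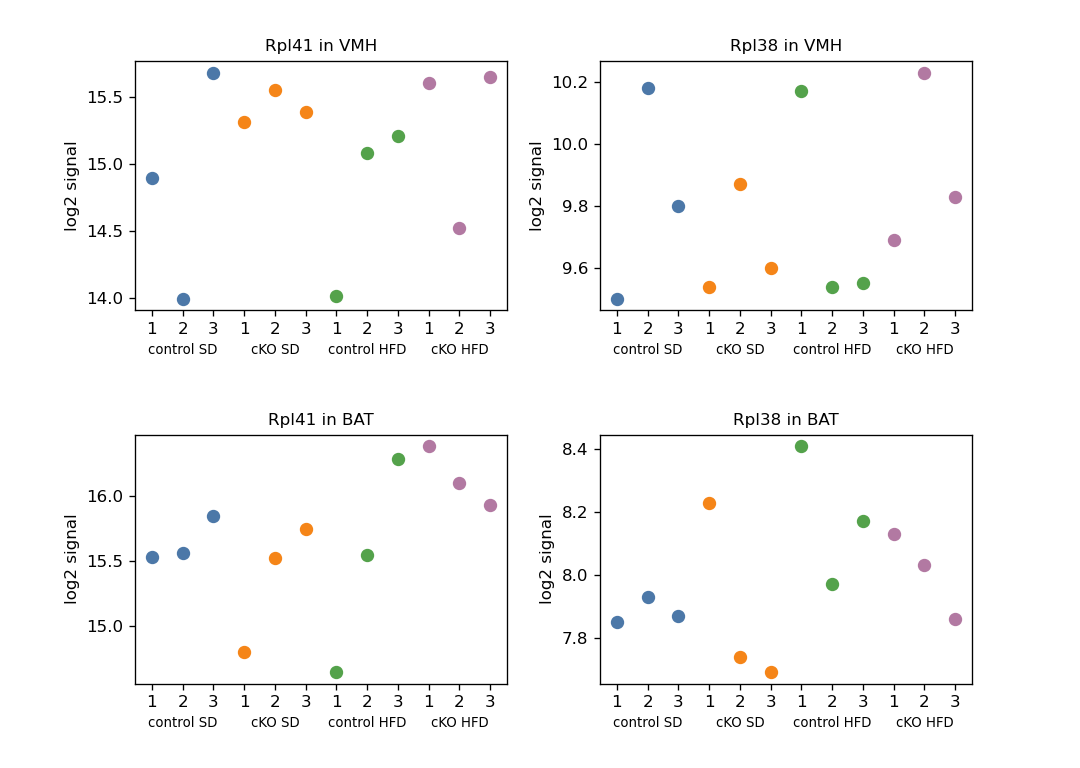
Log2 signal of Rpl41 (left) and Rpl38 (right) on each array of VMH (top) and BAT (bottom), arrays 1 to 3 of each group by colour, on axes that do not start at 0. In VMH the arrays at 13.99, 14.01 and 14.52 for Rpl41 are those at 10.18, 10.17 and 10.23 for Rpl38.

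Genes that work with the ribosomal proteins were compared from lists chosen with earlier results of these data known. In VMH on HFD, 206 ribosomal protein pseudogenes with a single symbol mostly had the sign of the members, with 189 positive and a median of 0.166, where 59.4% of all genes were positive. On SD 127 were positive with a median of 0.0453, against 52% of all genes. In BAT 161 of the 206 were positive on SD, with a median of 0.16, against 45.3% of all genes. None of them passed limma's threshold in the genotype comparisons, and 34 in VMH on HFD and 20 in BAT on SD had an unadjusted p under 0.05, against 7.98% and 3.89% of all genes. Their features and those of the members may read the same mRNAs. Among 4 ribosomal protein genes with other forms of name, Fau, which encodes the small-subunit protein eS30, differed by 0.56 ± 0.15 (SE) in VMH on HFD with a limma adjusted p of 0.32.

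The proteins of the mitochondrial ribosome, which make the respiratory chain subunits encoded in mitochondrial DNA, mostly had negative genotype differences in BAT, where most cytosolic members were positive. Of 75 measured genes 4 were positive and 71 negative between genotypes on SD, with a median of -0.203. On HFD 12 were positive and 63 negative, with a median of -0.181. HFD minus SD was positive for 71 in controls (median 0.346) and 72 in cKO arrays (median 0.356), led in controls by Mrpl28 at 0.43 ± 0.08 and a limma adjusted p of 0.0644. Limma called 0 of the 75 in these comparisons, and 2, 6, 14 and 10 of them had an unadjusted p under 0.05, against 3.89%, 7.24%, 16.3% and 16.6% of all genes. The same arrays differed in muscle and brown adipocyte markers, as given above, and the part of that in these medians was not tested. Of all genes in BAT, 45.3% and 52.8% were positive between genotypes on SD and HFD. Between diets 52.9% were positive in controls and 59.9% in cKO arrays. In VMH, 50 of the 75 were positive on SD and 56 on HFD, with medians of 0.052 and 0.071. There 52% and 59.4% of all genes were positive, with medians of 0.00528 and 0.0261.

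Factors that assemble or serve the ribosome were called in none of the comparisons either. In BAT on HFD 37 of 44 ribosome biogenesis factors were negative between genotypes, with a median of -0.11, and in VMH 31 were positive on SD (median 0.0623) and 28 on HFD (median 0.0191). Of 28 initiation factors 21 were positive in VMH on SD and 22 were negative in BAT on SD, with medians of 0.0695 and -0.114. Of 18 RNA polymerase I genes, which make ribosomal RNA, 14 were positive in VMH on HFD with a median of 0.0613 and 10 on SD with a median of 0.0409. In BAT 13 of the 18 were negative on both diets, with medians of -0.076 on SD and -0.133 on HFD. Of all genes in VMH, 52% were positive between genotypes on SD and 59.4% on HFD, with medians of 0.00528 and 0.0261. The biogenesis factors' median in VMH on HFD was thus below that of all genes. In BAT 45.3% and 52.8% of all genes were positive, with medians of -0.0147 and 0.0102. In the mTORC1 arm, the translation repressor gene Eif4ebp1 had the smallest p with diet in BAT, at 0.71 ± 0.16 (SE) in controls and 0.77 ± 0.16 in cKO arrays, with limma adjusted p of 0.0943 and 0.14. In limma, 3 biogenesis and 2 initiation factors had an unadjusted p under 0.05 between genotypes in VMH on SD, and 3 of each on HFD, as did 3 polymerase I genes on HFD, against 5.61% of all genes on SD and 7.98% on HFD.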

How the data were processed

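The deposited table holds log2 signals, 1 column per array, which the authors made from Affymetrix arrays. The submitters' processing notes list PLIER 2.0 and Affymetrix Expression Console 1.1.1 without saying what each did. How arrays were normalized and the build behind the features are not given in these sources. Of 72688 features 30604 carried a single symbol in the platform annotation and 2146 several, and 827 symbols were updated through a RefSeq gene table of GRCm38.p6. Values were used as deposited, with no filter on level and the brightest feature of a gene within a tissue, so that all 37 members were tested. A filter at the table's median signal, tried as an alternative, would have left 34 in VMH and 37 in BAT. Tissues were fitted apart because their array medians differed.

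limma 3.58.1 in R 4.3.3 (lmFit and eBayes) fitted the 4 group means over the 12 arrays of a tissue and gave 6 comparisons, which were the genotypes on SD, on HFD and averaged, the diets within controls and within cKO arrays, and the interaction. Tests were two-sided with p-values adjusted by Benjamini-Hochberg over 30142 genes, at a threshold of 0.05. The number of arrays limits the precision. The procedure was tried on simulated data with noise drawn independently for each gene. Of 100 genes changed by 1 on the log2 scale in HFD cKO arrays, 89% passed in VMH and 62% in BAT. Of 100 changed by 2, 100% and 91% did. The simulation held no changes as small as the members' medians and no shifts shared by members of an array, so it does not bear on those. The members, lists, markers and comparisons were chosen with earlier results of these data known, so the members are described by counts and medians beside those of all genes, with no test of the list. Members named in a comparison were drawn from those with the smallest p on each side of 0 and those fixed by role (stalk, tissue copies and their usual forms, Rps19, Rpl11, Rpl38, Rps4x, Rpsa). In each tissue the 4 brightest, the 4 dimmest and the 4 of widest spread could also be named. Not every member of this pool is named, and several comparisons name members on a single side of 0 only. Values of other members named for their array pattern, motif or lack of overlap were chosen after they were seen.

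Alternatives were array weights, the filter, a pseudocount of 16 added to linear signals, quantile normalization, averaging all features of a gene, a trended prior, only the groups compared, the replicate number as a block, the muscle markers as a covariate in BAT and leaving out each array. Features on the gene's own chromosome were added after seeing the data. The labels number the arrays of a group 1 to 3. Deviations from group means of arrays with the same number correlated at -0.23 to 0.249 over 18 pairs in VMH and at -0.742 to 0.357 over 18 pairs in BAT, so the numbers were not taken to pair arrays.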

Additional observations from a re-analysis of the deposited data

How the results depend on the processing

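No member passed the limma threshold in any of the 12 comparisons with the values used as deposited, and this held under each alternative except array weights and leaving out single arrays in the BAT diet comparisons. With array weights 4 members passed in controls (Rpl3l, Rpl11, Rps9 and Rps28) and 4 in cKO arrays (Rpl3l, Rpl37a, Rps15 and Rps27l), a fit in which the weights of 1 tissue stopped before full convergence. Of all 30142 genes 4670 passed upward and 3470 downward in controls, and 2018 and 1749 in cKO arrays. Leaving out single arrays gave 0 to 1 in controls, where Rpl3l passed without SD control array 2, and 0 to 1 in cKO arrays, where Rpl37a passed without SD cKO array 1. Of all 30142 genes 1986 passed in the former fit and 797 in the latter. The count of members above 0 ranged from 18 to 32 in VMH between genotypes on SD, the lowest without cKO array 2, from 14 to 26 in BAT between genotypes on HFD, the lowest without cKO array 1, and from 10 to 22 for the BAT interaction, the highest without HFD cKO array 3. The median ranged from 0.0179 to 0.133 for the VMH interaction, from -0.119 to 0.0615 for HFD minus SD in BAT cKO arrays and from -0.14 to 0.051 for the BAT interaction. The cause of these shifts was not tested.

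With the replicate number as a block, 0 members passed in either tissue and no member's call changed. Each group holds each number once, so the block cannot alter a difference. The counts above 0, 28 of 37 in VMH on SD and 34 on HFD, are therefore those of the main fit. The members' median kept its sign in 239 of 254 recomputed values and changed it in 15, in 6 of the 12 comparisons, and none of these medians was a called value. Part of the 254 could not differ from the main fit. The trended prior, the replicate block and only the groups compared leave every group difference as it was. Leaving out an array of a group that is not compared does so too, so the 239 overstates how far the sign was tried. Of the 15, 10 came from leaving out an array. The others were HFD minus SD in VMH controls (-0.0313 under quantile normalization and -0.0101 with array weights), in BAT cKO arrays (0.0211 under quantile normalization and 0.0113 with the features of a gene averaged) and in BAT controls (-0.0204 with the muscle covariate). The median in VMH on HFD was positive in all 21 of its alternatives, part of which return 0.126 by design. Where it could differ it lay between 0.0883 (quantile normalization) and 0.142 (without HFD control array 3).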
